A study of Danio rerio with 18 samples.

Results

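The comparison described here sets livers of uhrf1 mutant zebrafish larvae against livers of control larvae, all held in palbociclib. It rests on 9 of the 18 liver RNA-seq libraries of the series, chosen by their genotype and treatment labels: 5 mutant libraries (replicates 1 to 5) and 4 control libraries (replicates 1, 2, 4 and 5). Mutant larvae were homozygous for uhrf1-hi272, an insertion allele, and control larvae were their siblings, which the design text calls wild type. Both came from incrosses of heterozygous adults of strain ABNYU. All carried Tg(fabp10a:CAAX-EGFP), in which a hepatocyte promoter drives a membrane-bound fluorescent protein. The larvae were held from 48 to 120 hours after fertilization in 20 µM palbociclib with 0.5% DMSO. The other 9 libraries, 5 mutant and 4 control, had 0.5% DMSO alone. They enter the model behind every call, where they share in the filter on low counts and the estimate of spread, and their own mutant effect is set beside that with palbociclib. Each library is a pool of livers dissected from larvae of the same genotype call within a treatment batch. Nothing in the labels ties the pools of a group to different clutches, so the p-values below reflect only how much these pools vary, part of which may be technical.

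Uhrf1 binds half-methylated DNA behind the replication fork and brings in Dnmt1, the enzyme that copies methylation onto the new strand. Zebrafish uhrf1 mutants are known for loss of DNA methylation, small livers and a response like that to a viral infection. Palbociclib inhibits CDK4 and CDK6, the kinases that release cells from G1 into S phase. In a viral response, sensors of foreign nucleic acid lead to interferon, whose receptors signal to genes such as isg15 and mx. The same signal raises the class I machinery that shows peptides to T cells, while NF-kB drives cytokines and TNF receptor family genes.

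Total counts per library were 2863560 to 4056715 in the mutant and 3400255 to 4764175 in the control libraries. edgeR tested 17048 genes, and a gene is said to rise or fall where its Benjamini-Hochberg adjusted p was under 0.05. Levels are given in CPM, read counts scaled to a common TMM-adjusted library size, and log2 fold changes are mutant over control. Each SE is the size of the log2 fold change divided by the square root of the test's F statistic. It was not estimated directly. Symbols are spelt as in the reference table, with the end of the gene identifier added where several genes share a symbol. Reads of near-identical copies, such as those of the gig2, MHC, ces2 and cyp2 families, may have been split between them, and without a stated strand setting overlapping genes cannot be told apart.

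The targeted gene uhrf1 (ENSDARG00000103409) had 39, 44.9, 39, 50.1 and 32 CPM in mutant replicates 1 to 5, against 37.8, 51.8, 47.7 and 55.9 CPM in control replicates 1, 2, 4 and 5. The groups overlapped (log2 fold change -0.23, SE 0.156, adjusted p = 0.721). DNMT1, its partner in maintenance methylation, had 55.2 ± 10.2 CPM in mutant and 53.3 ± 2.95 CPM in control libraries (SD, n = 5 and 4, adjusted p = 0.978). An insertion need not lower the reads summed over a whole gene, so this level is no check on genotype, and every direction below is that of libraries labelled mutant.

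Hepatocyte markers were abundant in every library, and RNA of other tissues was present too. fabp10a (ENSDARG00000038439), a fatty acid carrier of fish liver cells, had 2259, 2776, 2049, 2515 and 2633 CPM in the mutant libraries, against 3078, 4160.5, 2104 and 1746 CPM in the control libraries. Control replicates 1 and 2 were above every mutant library and control replicate 5 was below every mutant library. fabp10a was not called (log2 fold change -0.18, adjusted p = 0.917), and the group difference stood against an SD of 1083 CPM among control libraries.

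Muscle genes took 5.86%, 5.08%, 5.68%, 5.7% and 4.96% of the counts in mutant replicates 1 to 5, against 4.59%, 4%, 5.44% and 5.94% in control replicates 1, 2, 4 and 5. Hepatocyte enzyme genes took 1.07%, 1.18%, 1.08%, 0.942% and 1.18% in the mutant libraries, against 1.67%, 1.86%, 1.34% and 1.1% in the control libraries. Control replicates 1 and 2 had the lowest muscle shares and the highest hepatocyte enzyme shares of the 9 libraries, and control replicate 5 had the highest muscle share. In means, muscle genes took 5.46% and 4.99% (exact two-sided permutation p = 0.333), hepatocyte enzymes 1.09% and 1.49% (exact p = 0.0238) and secreted hepatocyte proteins 6.05% and 6.43% (exact p = 0.643) in mutant and control libraries. Adjusted over 15 such shares the smallest p was 0.119. With 5 against 4 libraries an exact p cannot go below 0.00794. In pooled livers, fewer cells of a type and less RNA per cell cannot be told apart.

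**Figure D1:**
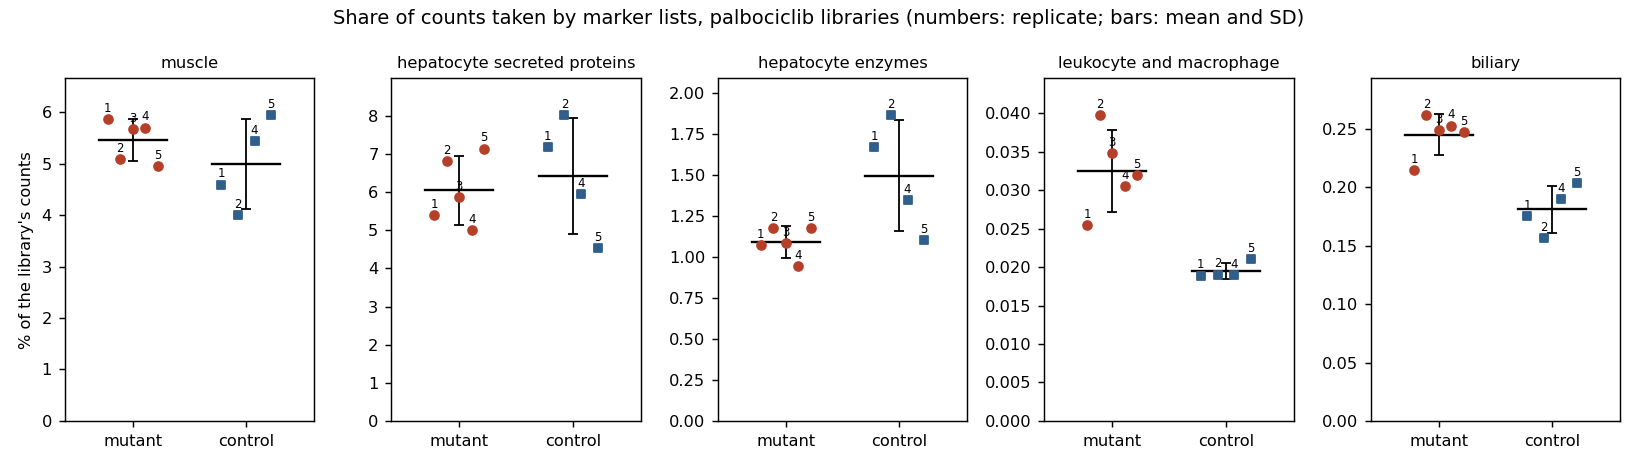
Share of each library's counts (%, linear axis from 0) taken by 5 marker lists in the palbociclib libraries, mutant at the left and control at the right; points are libraries with their replicate numbers, and bars are the mean and SD. Control replicates 1 and 2 sit lowest for muscle (4.59% and 4%) and highest for hepatocyte enzymes (1.67% and 1.86%), while every mutant library is above every control library for the leukocyte and biliary lists.

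With palbociclib, 8 of 29 interferon response genes, 3 of 12 class I and 3 of 7 class II antigen presentation genes rose in mutant livers, and none of these lists had a member that fell. In the other direction 3 of 40 xenobiotic metabolism genes and 3 of 29 fatty acid oxidation genes fell, and none rose. Of 17048 genes, 108 rose (0.634%) and 71 fell (0.416%) in mutant livers, and 1656 had an unadjusted p under 0.05. The median log2 fold change of all tested genes was 0.03. With libraries scaled by the counts of hepatocyte genes, 169 rose and 25 fell, which puts 87.1% of the calls on the higher side, against 60.3% with TMM. In that scaling the median of all genes was 0.21. Its library sizes were the summed counts of the secreted protein and hepatocyte enzyme lists, so members of these lists were measured against their own sum. In a fit of the 9 palbociclib libraries alone, 87 rose and 93 fell, and these hold 71 of the 108 (65.7%) and 48 of the 71 (67.6%). Among the genes described below, RNF213, LECT2_033227, cyp2ad6, slc47a2.1, CYP27B1, VDR_070721, dio3b, IGFBP2_031422, AGXT_052099, GATM and GAMT were not called in that fit. ifi44a1, bcl3 and FGF19, also described below, did not pass the filter on low counts there and were not tested.

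Among the 108 genes that rose, the 5 mutant and 4 control libraries did not overlap for 90, and 12 had no count in any control library. Over all tested genes, libraries did not overlap for 1.91% with the mutant higher. The 108 were chosen by a test on these same libraries, so their lack of overlap is no separate result. Some genes named below were also chosen for it. Mutant replicate 1 was the lowest mutant library for 89 of the 108 genes and mutant replicate 2 the highest for 66. Without mutant replicate 1, 163 genes rose and 86 fell, and without control replicate 1, 71 rose and 26 fell.

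Among the 71 genes that fell, the libraries did not overlap for 48, against 1.43% of all tested genes with the mutant lower. This too follows in part from how the 71 were chosen. Control replicate 2 was the highest control library for 54 of the 71 and control replicate 5 the lowest for 48. For 55 of the 71, control replicates 1 and 2, the 2 of low muscle share, were both above control replicates 4 and 5. Without control replicate 2, 24 genes fell, and without control replicate 5, 202 fell. The number was 45, 36 and 41 without mutant replicates 2, 3 and 4. Without control replicates 1 and 2 together, a choice made after the data were seen, 37 genes rose and 6 fell. Without control replicates 4 and 5 together, 70 rose and 376 fell. With the muscle share as a covariate, 284 rose and 175 fell, and these hold all of the 108 and 69 of the 71 (97.2%). Without control replicates 1 and 2 together, 35 of the 108 and 5 of the 71 were kept. The part of muscle RNA in the genes that fell was not tested further.

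**Figure D2:**
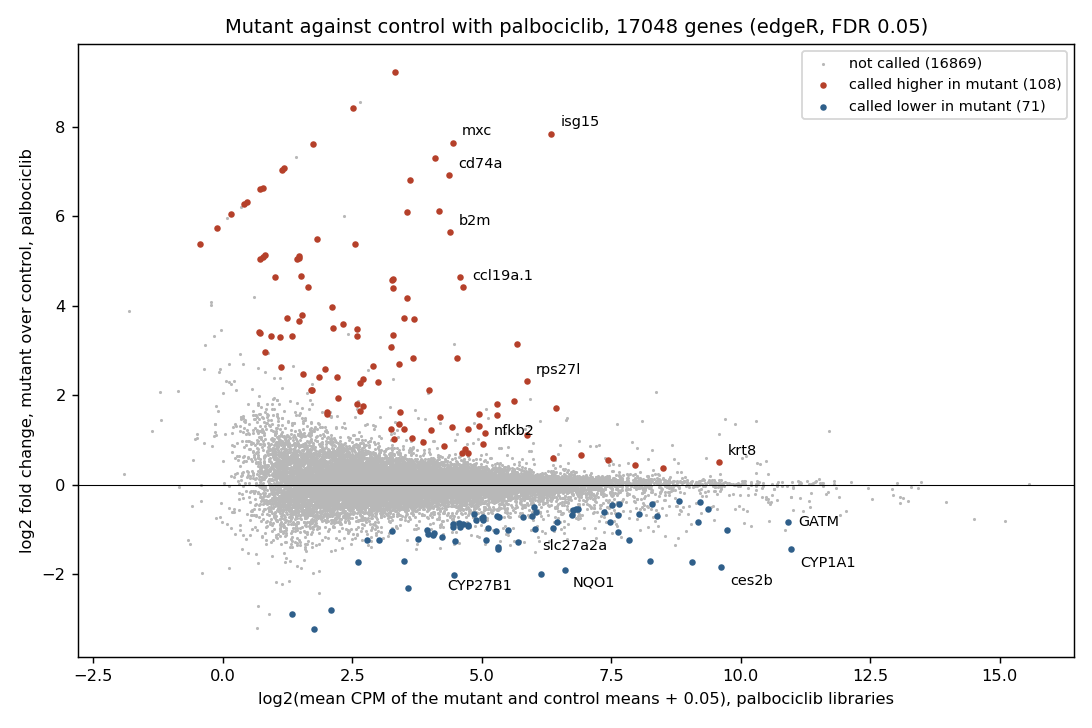
Log2 fold change of mutant over control against the mean level (log2 of CPM plus 0.05) for every tested gene in the palbociclib libraries; red and blue points are the 108 genes that rose and the 71 that fell at an adjusted p under 0.05. Increases reach log2 fold changes above 7, as for isg15 (7.84) and mxc (7.64). The decreases labelled run from -0.84 (GATM) to -1.99 (CYP27B1), with NQO1 at -1.91.

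In the fit of 18 libraries the interferon list had the most calls by number, and the class II list had more by share. Without control replicate 5 the interferon list had 5 calls, against 12 for amino acid breakdown, 9 for hepatocyte enzymes and 8 for fatty acid oxidation. isg15 (ENSDARG00000086374), a ubiquitin-like modifier made in response to interferon, had 83.7, 223, 162, 175 and 164 CPM in mutant replicates 1 to 5, against 0.86, 0.316, 0 and 1.62 CPM in control replicates 1, 2, 4 and 5. Every mutant library was far above the highest control library, and mutant replicate 1 was the lowest of the mutant libraries. The log2 fold change was 7.84 (SE 0.687, adjusted p = 2.78e-05).

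mxc, an antiviral GTPase of the Mx family, had 6.61, 78.1, 60.4, 21.6 and 48.6 CPM in the mutant libraries, against 0, 0, 0.403 and 0.27 CPM in the control libraries. That is 747 counts against 3, a ratio of 230 (exact 95% interval 78.6 to 1120, counting error only; adjusted p = 0.00347). gig2d, of a family that virus infection induces in fish, had 1.82, 11.4, 3.42, 8.29 and 7.85 CPM in the mutant libraries and no count in any control library. With 112 counts against a floor of 3 counts over the group it was at least 34.6-fold higher (adjusted p = 0.00211). For both genes mutant replicate 1 was again the lowest mutant library and mutant replicate 2 the highest.

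rnf213b, a paralog of the large ubiquitin ligase RNF213, had 94 counts in mutant and 2 in control libraries, a ratio of 43.5 (exact 95% interval 11.7 to 365; adjusted p = 3.78e-05). ifi27.1, an interferon-inducible membrane protein, had 18.5 ± 6.8 CPM in mutant and 0.84 ± 0.556 CPM in control libraries (SD, n = 5 and 4; log2 fold change 4.39, SE 0.402, adjusted p = 1.42e-09). igldcp had 91 counts against 2, a ratio of 42.1 (exact 95% interval 11.3 to 353; adjusted p = 0.000891). parp14rs1, related to the ADP-ribosyltransferase PARP14, had 10.9 ± 5.25 CPM against 2.07 ± 1.18 CPM (log2 fold change 2.37, adjusted p = 0.0032). None of these 4 genes had overlapping groups, which for rnf213b, ifi27.1 and igldcp was a condition of being named.

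Of 29 tested members of the interferon list, 8 rose, none fell and 21 were not called, with a median log2 fold change of 1.87 and 27 members above 0. The background of genes that rose was 0.634% and the median of all genes 0.03. Of the list's 36 genes, 7 did not pass the filter on low counts. That filter can keep a gene for its level in mutant libraries alone, as with gig2d. The median and the count above 0 therefore follow in part from the filter and are no separate result. Beside isg15, mxc, gig2d and parp14rs1, the ubiquitin ligase RNF213 rose (77.7 ± 37.6 CPM against 21.2 ± 3.01 CPM, adjusted p = 0.0347). gig2e (3.4 ± 1.66 CPM against 0.304 ± 0.096 CPM, adjusted p = 0.0289) and ifi44a1 (30 counts against 0, at least 9.26-fold higher, adjusted p = 0.0359) rose too. These last 3, and stat2 and RSAD2 below, were named after their values were seen.

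The count of 8 moved with single libraries. It was 15 without mutant replicate 1, 6 without mutant replicate 4, and 5 without mutant replicate 2, 3 or 5 or control replicate 5. It was 4 without control replicate 1, 2 or 4. isg15, mxc, gig2d and parp14rs1 were called in each of these 9 fits. gig2e was kept only without mutant replicate 1, RNF213 only without mutant replicate 1 or 4, and ifi44a1 only without mutant replicate 1. Without mutant replicate 2, ifi44a1 did not pass the filter on low counts and was not tested. Without control replicates 1 and 2 together the count was 1 (isg15). With the muscle share as a covariate it was 15, and DESeq2 called 13 of the 29.

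stat2, a transcription factor of interferon signalling, had 20.3, 50.5, 47, 35.1 and 51.9 CPM in the mutant libraries, against 25.6, 16.4, 18.1 and 20 CPM in the control libraries. Only mutant replicate 1 fell within the control range, and stat2 was not called (log2 fold change 1.02, adjusted p = 0.0527), but it was called without that library (adjusted p = 0.000367). RSAD2, the antiviral enzyme viperin, had no count in mutant replicate 1 and 48 counts in all mutant libraries, against 2 in control libraries, a ratio of 22.2 (exact 95% interval 5.82 to 189; adjusted p = 0.0595).

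Genes outside that list, named after their values were seen, also rose. uba7, the enzyme that activates ISG15 for conjugation, had 4.79, 26.2, 22.5, 11.9 and 18.4 CPM in the mutant libraries, against 1.5, 2.84, 2.01 and 1.62 CPM in the control libraries (log2 fold change 3.07, SE 0.525, adjusted p = 0.00392). The interferon regulatory factor irf10 had 5.34 ± 2.43 CPM against 0.309 ± 0.388 CPM (adjusted p = 0.00201). The apoptosis factor xaf1 had 5.06 ± 3.25 CPM against 0.372 ± 0.146 CPM (adjusted p = 0.00234), and the ADP-ribosyltransferase parp9 3.86 ± 2.55 CPM against 0.351 ± 0.174 CPM (adjusted p = 0.00501). No overlap was seen for any of the 4, and each stayed called when any single library was left out. Without control replicates 1 and 2 together none of the 4 was called.

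**Figure D3:**
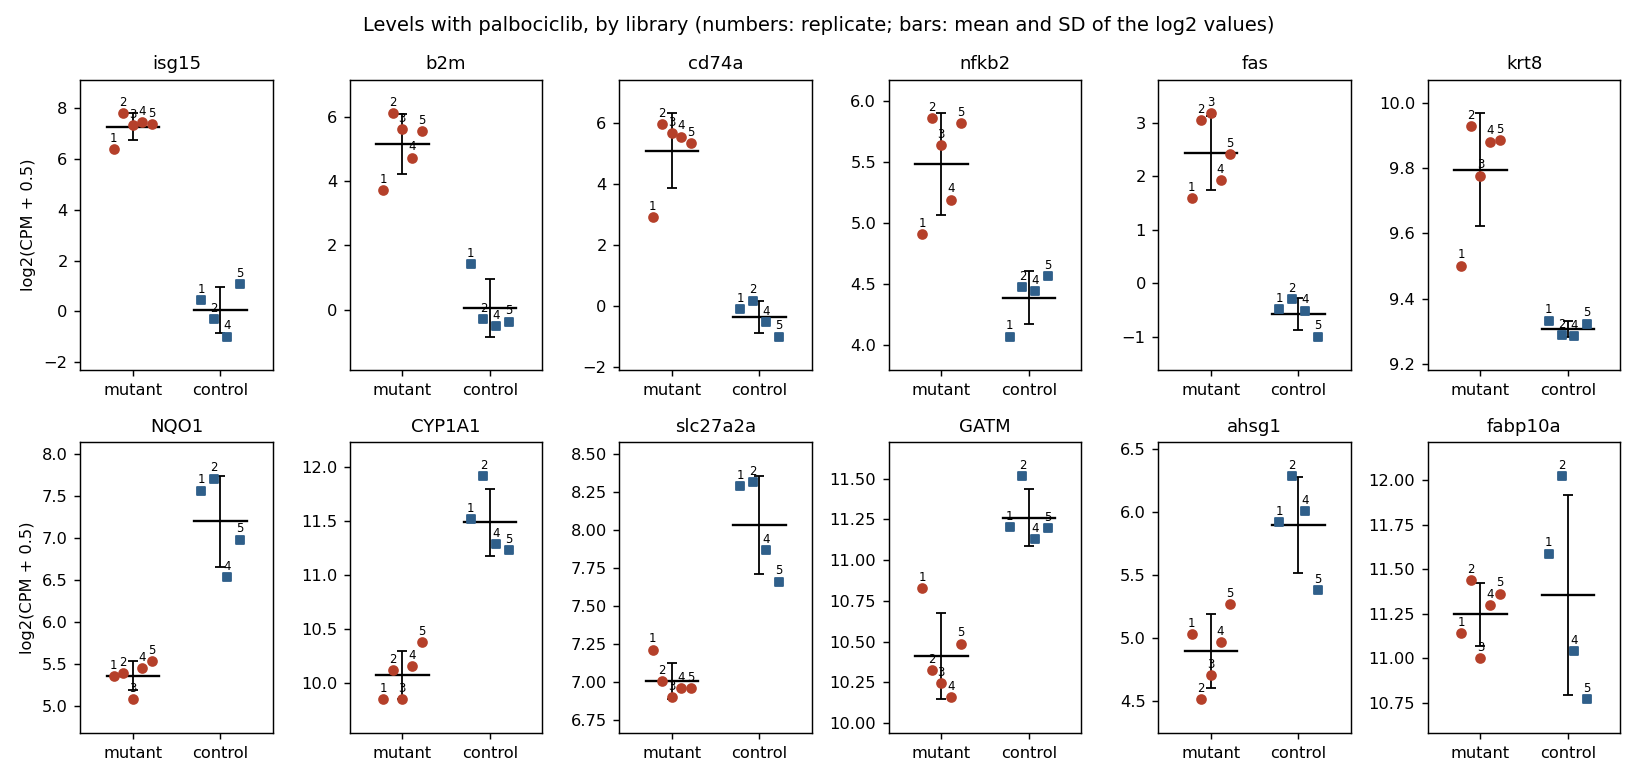
Levels, as log2 of CPM plus 0.5 (axes do not start at 0 and differ between panels), of 12 genes in each palbociclib library, mutant at the left and control at the right; points carry the replicate number, and bars are the mean and SD of the log2 values. For isg15, b2m and cd74a mutant replicate 1 is the lowest mutant library and still above every control library, and for slc27a2a and NQO1 control replicates 1 and 2 are above control replicates 4 and 5. fabp10a is the panel in which the groups overlap.

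In the class I antigen presentation list 3 of 12 genes rose. b2m (ENSDARG00000053136), the invariant light chain of class I molecules, had 12.8, 69.4, 48.7, 26.2 and 46.8 CPM in the mutant libraries, against 2.15, 0.316, 0.201 and 0.27 CPM in the control libraries. There was no overlap, and control replicate 1 stood above the other controls. The log2 fold change was 5.64 (SE 0.663, adjusted p = 0.00035).

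TAP1, a subunit of the transporter that brings peptides into the endoplasmic reticulum, had 5.93, 29, 18.5, 19.9 and 15.4 CPM in the mutant libraries, against 1.72, 1.58, 1.61 and 1.89 CPM in the control libraries (log2 fold change 3.35, SE 0.467, adjusted p = 0.000299). PSME2, an activator subunit of the proteasome, had 12.8 ± 4.13 CPM in mutant and 1.98 ± 0.953 CPM in control libraries (log2 fold change 2.66, SE 0.383, adjusted p = 3.09e-05). Neither gene's groups overlapped. Of 12 tested members of the list these 3 rose, none fell, all 12 were above 0 and the median was 1.28. Another 7 of the list's 19 genes did not pass the filter, so the limit given for the interferon list holds here too. ERAP1_013024, which trims peptides, was not called (10.5 ± 5.97 CPM against 4.25 ± 1.27 CPM, adjusted p = 0.0506), but it was without control replicate 5, mutant replicate 1 or mutant replicate 5. The count of members that rose was 5 without control replicate 5 or mutant replicate 1, and 7 with the muscle share as a covariate.

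In the class II antigen presentation list 3 of 7 genes rose. cd74a (ENSDARG00000009087), the invariant chain that escorts class II molecules, had 7.07, 61.6, 49.8, 46.1 and 39.6 CPM in the mutant libraries, against 0.43, 0.632, 0.201 and 0 CPM in the control libraries. Mutant replicate 1 was far below the other mutant libraries and still above every control library. The log2 fold change was 6.91 (SE 0.845, adjusted p = 0.000504).

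Its paralog cd74b had 3.19, 26.8, 19.7, 20.6 and 22 CPM in the mutant libraries, against 0.43, 0.947, 0.403 and 1.35 CPM in the control libraries (log2 fold change 4.57, SE 0.598, adjusted p = 0.000299). cd83, a surface protein of activated antigen-presenting cells, had 8.89, 12.8, 8.26, 11.6 and 13.9 CPM against 2.36, 0.947, 0.403 and 0 CPM (log2 fold change 3.48, SE 0.449, adjusted p = 8.3e-06). For cd83, unlike cd74a and cd74b, mutant replicate 1 was not the lowest mutant library. Of 7 tested members of the list these 3 rose and none fell, in each fit without a single library as well. The median was 3.48, with the same limit, as 2 of the list's 9 genes did not pass the filter. mhc2dga, a class II gene, had 36 counts in mutant libraries and 0 in control libraries, at least 11.1-fold higher, but 0 counts in mutant replicate 5, and was not called (adjusted p = 0.245). The lysosomal protease ctss2.1, named after its values were seen, had 8.49 ± 4.21 CPM against 4.43 ± 0.455 CPM (adjusted p = 0.385).

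Class II genes are also markers of leukocytes, so the rest of that marker list is given beside them. The leukocyte and macrophage list took 0.0325% of counts in mutant and 0.0195% in control libraries (ranges 0.0254% to 0.0397% and 0.0189% to 0.021%, exact permutation p = 0.0159, adjusted p = 0.119). Without cd74a, cd74b and cd83 it took 0.025% ± 0.00271 and 0.0193% ± 0.00108 (SD, n = 5 and 4, exact permutation p = 0.0159). Of 25 tested members those 3 rose, and of the other 22 edgeR called none in either direction (median log2 fold change 0.26). At an unadjusted p under 0.05, 8 of the 25 were higher and none was lower, and DESeq2 also called 3.

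Of the list's other members, chosen here after their values were seen, the pan-leukocyte phosphatase ptprc had 26 counts in mutant and 42 in control libraries, and the macrophage receptor csf1ra had 203 and 152. The macrophage pore protein MPEG1_043093 had 83 and 63 counts and the scavenger receptor marco 83 and 54. The largest increases not called were those of laptm5 (51 counts in mutant and 15 in control libraries, log2 fold change 1.57, adjusted p = 0.335) and the granulin grna (124 and 47 counts, log2 fold change 1.28, adjusted p = 0.137). Of the 25 tested members 20 were above 0 and 5 below. Those below were ptprc (log2 fold change -0.80), spi1a (71 and 108 counts, -0.74), itgb2 (51 and 77 counts, -0.67), cybb (26 and 30 counts) and CORO1A (194 and 195 counts). HMOX1, a heme oxygenase, had 158 and 84 counts and the lysosomal protein cd68 had 1092 and 721, and neither was called. MPEG1_078569 was the only member with 0 counts in all 9 libraries. The part of leukocyte number in the class II genes was not tested.

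In the NF-kB and inflammation list 2 of 25 genes rose. nfkb2 (ENSDARG00000038687), the subunit of the non-canonical NF-kB pathway, had 29.6, 57.7, 49.3, 36.1 and 55.9 CPM in the mutant libraries, against 16.3, 21.8, 21.3 and 23.2 CPM in the control libraries. Mutant and control libraries did not overlap (log2 fold change 1.15, SE 0.187, adjusted p = 0.000299). ccl19a.1, a chemokine that draws T cells and dendritic cells, had 21.4, 78.9, 54.7, 44.8 and 37.4 CPM against 2.15, 1.58, 1.61 and 3.51 CPM (log2 fold change 4.41, SE 0.513, adjusted p = 0.000332). Mutant replicate 1 was the lowest mutant library for both.

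Of 25 tested members of the NF-kB and inflammation list these 2 rose and none fell, in each fit without a single library as well, and the median was 0.53. The inhibitors of NF-kB nfkbiab (76 ± 13.9 CPM against 51.1 ± 6.02 CPM, adjusted p = 0.206) and nfkbiaa (11.9 ± 3.66 CPM against 8 ± 1.45 CPM, adjusted p = 0.476) were not called. Nor were the chemokine cxcl18b (9 ± 3.16 CPM against 2.9 ± 3.05 CPM, adjusted p = 0.406) and the protease MMP9 (4.03 ± 1.6 CPM against 4.3 ± 1.3 CPM, adjusted p = 0.98). Both nfkbiaa and MMP9 were named after their values were seen.

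Outside the list, and named after their values were seen, the TNF receptor family member tnfrsf9a had 3.42, 5.58, 4.56, 4.31 and 4.83 CPM in the mutant libraries, against 0.215, 0.316, 0.604 and 0.54 CPM in the control libraries (log2 fold change 3.32, adjusted p = 0.00035). cd40, another member of that family, had 7.78 ± 4.98 CPM against 1.36 ± 0.985 CPM (adjusted p = 0.00581), with mutant replicate 1 (2.28 CPM) below control replicate 1 (2.79 CPM). The adaptor traf2b rose (16.7 ± 3.74 CPM against 8.18 ± 2.12 CPM, adjusted p = 0.0143), but not without control replicate 4 or mutant replicate 2. The nuclear NF-kB cofactor bcl3 rose as well (6.03 ± 4.03 CPM against 1.14 ± 0.776 CPM, adjusted p = 0.0337) and kept its call only without mutant replicate 1 or 4.

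In the list of p53 targets and cell death, 3 of 39 tested genes rose and none fell (median 0.28). fas (ENSDARG00000043586), the death receptor, had 2.51, 7.81, 8.54, 3.32 and 4.83 CPM in the mutant libraries, against 0.215, 0.316, 0.201 and 0 CPM in the control libraries. That is 95 counts against 3, a ratio of 29.3 (exact 95% interval 9.73 to 145; adjusted p = 7.77e-05). casp8, the caspase that acts downstream of death receptors, had 2.96, 11.7, 7.98, 6.3 and 7.85 CPM against 3.01, 1.89, 1.21 and 1.35 CPM (log2 fold change 1.95, SE 0.401, adjusted p = 0.00426), and mutant replicate 1 lay just below control replicate 1.

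rps27l, a ribosomal protein-like target of p53, had 64.3, 127, 92.9, 82.2 and 121 CPM in the mutant libraries, against 16.5, 19.9, 22.2 and 19.4 CPM in the control libraries (log2 fold change 2.32, SE 0.355, adjusted p = 0.00339). Its groups were far apart. Other well-known targets of p53 were not called: mdm2 had 32.4 ± 10 CPM against 20.9 ± 5.49 CPM (adjusted p = 0.116), CCNG1 351 ± 32.1 CPM against 279 ± 26.4 CPM (adjusted p = 0.0877) and the CDK inhibitor cdkn1a 45.9 ± 6.13 CPM against 40.8 ± 5.12 CPM (adjusted p = 0.857). mdm2 was called without mutant replicate 1.

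krt8 (ENSDARG00000058358), a keratin of simple epithelia that marks bile duct cells, had 724, 974, 877, 943 and 946 CPM in the mutant libraries, against 644, 625, 623 and 640 CPM in the control libraries. All mutant libraries lay above the closely spaced control libraries (log2 fold change 0.50, SE 0.0859, adjusted p = 0.000465). krt8 was not called with libraries scaled to hepatocyte genes. The biliary list took 0.245% of counts in mutant and 0.181% in control libraries (exact permutation p = 0.0159, adjusted p = 0.119). krt8 was the only one of its 19 tested members that edgeR called in the main fit (median 0.03). DESeq2 called 2 higher, and the fit with the muscle share as a covariate 3. At an unadjusted p under 0.05, 4 were higher and none was lower.

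Acute phase and complement genes had high and low values in mutant libraries, of which 1 listed gene passed the test. cfhl5, a complement factor H-like gene, had 18.2, 77.8, 44.7, 16.6 and 70 CPM in the mutant libraries, against 0.43, 3.16, 1.41 and 2.7 CPM in the control libraries (log2 fold change 4.64, SE 0.812, adjusted p = 0.00987). The groups did not overlap, but the call was lost without control replicate 1. c4b, a complement component, had 199, 786, 548, 307 and 802 CPM against 155, 199, 87.8 and 61.3 CPM and was not called (adjusted p = 0.0581). Mutant replicate 1 was level with control replicate 2, and without it c4b was called. c3b.2, of the complement C3 family, lay the other way, at 268, 385, 320, 261 and 372 CPM in the mutant libraries, against 813, 996, 519 and 316 CPM in the control libraries (log2 fold change -1.04, adjusted p = 0.095), and was called without control replicate 5.

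Of 17 tested acute phase genes, LECT2_033227, a cytokine that the liver secretes, was the only one that rose (132 ± 16.4 CPM against 40.1 ± 20.2 CPM, adjusted p = 0.0445). It was not called in any of the 9 fits without a single library, although its groups did not overlap. Of the 17 genes, 6 were higher and 3 lower at an unadjusted p under 0.05, and DESeq2 called 2 higher and 1 lower. With the muscle share as a covariate 7 were called higher, and with libraries scaled to hepatocyte genes 6. hamp, which encodes the iron hormone hepcidin, had 72.3, 115, 80.9, 90.2 and 119 CPM in the mutant libraries, against 22.8, 46.1, 8.66 and 26.5 CPM in the control libraries, without overlap, and was not called (adjusted p = 0.118). leap2, an antimicrobial peptide of liver, had 1.18 ± 1.1 CPM in mutant and 4.43 ± 1.75 CPM in control libraries and was not called either (log2 fold change -1.86, adjusted p = 0.0662), but it was without control replicate 4 or mutant replicate 5. Of 47 complement and coagulation genes none was called in either direction by edgeR (median 0.18, 25 above 0 and 22 below), against 4 higher and 1 lower with DESeq2 and 8 and 3 at an unadjusted p under 0.05. With the muscle share as a covariate 12 were higher.

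**Figure D4:**
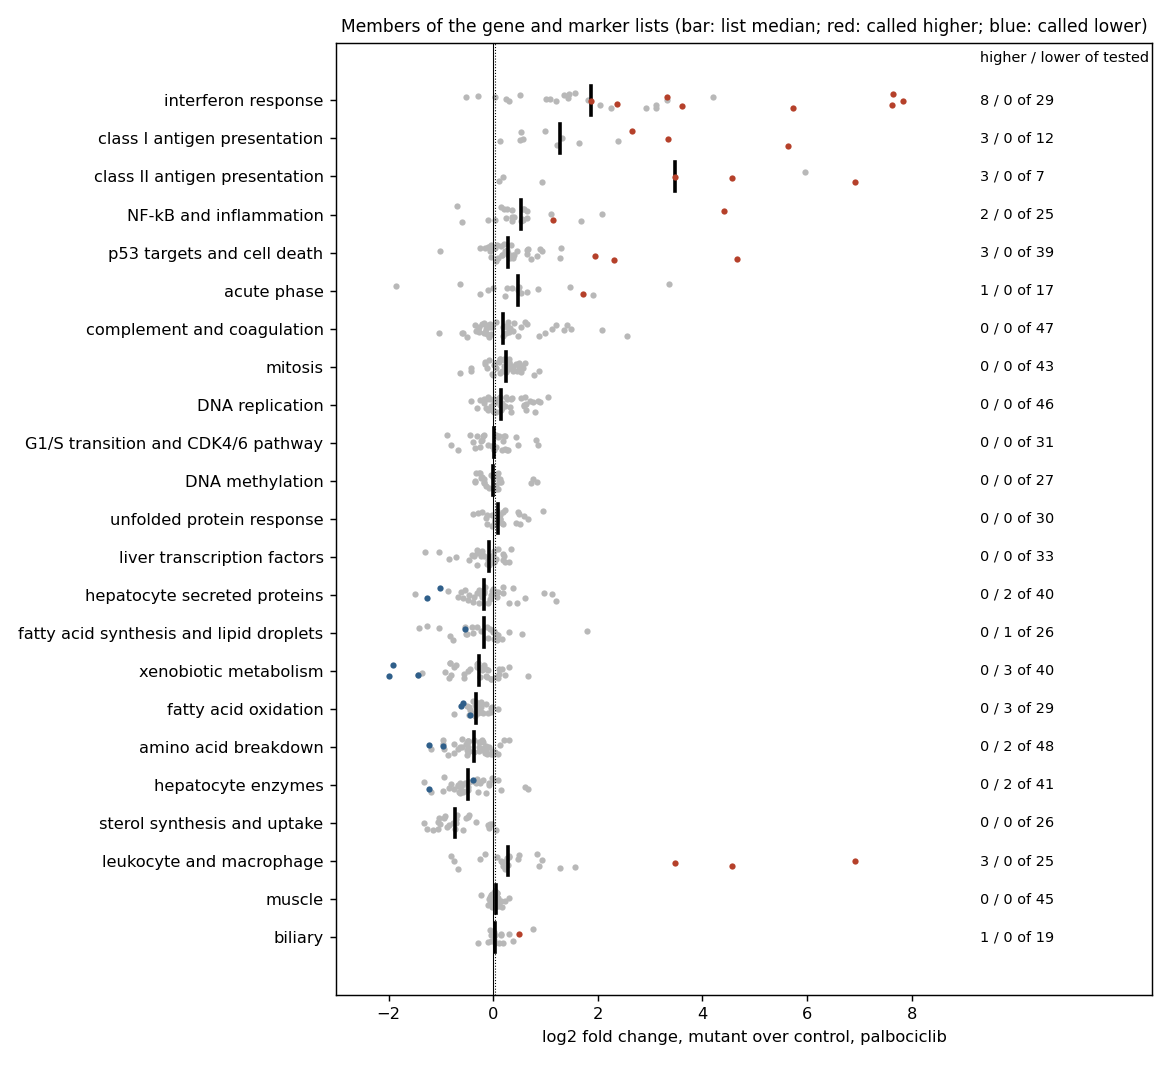
Log2 fold change of mutant over control with palbociclib for every tested member of 23 gene and marker lists; black bars are list medians, the dotted line is the median of all genes (0.03), red and blue points are members that rose and fell, and the numbers at the right count them. The interferon, class I and class II lists have medians of 1.87, 1.28 and 3.48, the sterol list one of -0.72 with no member called, and the muscle list lies close to 0.

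Genes of drug metabolism were among those that fell. NQO1 (ENSDARG00000010250), a quinone reductase induced by oxidative stress and dioxin-like compounds, had 40.4, 41.5, 33.3, 43.4 and 45.9 CPM in the mutant libraries, against 189, 209, 92.4 and 126 CPM in the control libraries. Every control library was well above the highest mutant library. The log2 fold change was -1.91 (SE 0.203, adjusted p = 5.81e-05), and NQO1 was the only gene named among those that fell that was called in every alternative tried.

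CYP1A1 (ENSDARG00000098315), the cytochrome P450 induced through the aryl hydrocarbon receptor, had 924, 1113, 926, 1144 and 1334 CPM in the mutant libraries, against 2939.6, 3872, 2496 and 2408 CPM in the control libraries (log2 fold change -1.43, SE 0.25, adjusted p = 0.00987). The carboxylesterase ces2b had 468, 275, 251, 316 and 417 CPM against 1044, 1299.5, 1066 and 1516 CPM (log2 fold change -1.83, SE 0.333, adjusted p = 0.0133). Both genes had groups that were apart, and for ces2b control replicate 5 was the highest control library. Neither was called without control replicates 1 and 2 together. cyp2ad6, another cytochrome P450, had 21.4 ± 3.58 CPM in mutant and 57.9 ± 23.5 CPM in control libraries (log2 fold change -1.43, adjusted p = 0.00137), and control replicate 5 (25.7 CPM) lay within the mutant range.

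Of 40 tested members of the xenobiotic list, NQO1, cyp2ad6 and CYP27B1 fell and none rose (background of genes that fell 0.416%, list median -0.26). Matching did not place CYP1A1 and ces2b in that list. The count was 6 without control replicate 5 and 2 without control replicate 1 or 2 or mutant replicate 2, 3 or 4. slc47a2.1, an exporter of organic cations, fell (8.79 ± 3.92 CPM against 35.3 ± 16.1 CPM, log2 fold change -2.01, adjusted p = 0.0242), but not without control replicate 1 or 2 or mutant replicate 2, 3 or 4.

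CYP27B1 and dio3b, of vitamin D and thyroid hormone metabolism, fell, and single libraries decided both calls. CYP27B1, which makes active vitamin D, had 8.89, 32.3, 28.8, 19.6 and 53.4 CPM in the mutant libraries, against 118, 168, 90.4 and 75.9 CPM in the control libraries (log2 fold change -1.99, SE 0.4, adjusted p = 0.0249). Every mutant library was below every control library, and the call was lost without control replicate 1 or 2 or mutant replicate 2, 3 or 4. The vitamin D receptor gene VDR_070721 had 22.8, 23.7, 24.5, 15.3 and 22 CPM against 71.1, 82.7, 46.7 and 29.4 CPM (log2 fold change -1.40, SE 0.25, adjusted p = 0.00607), and kept its call in all 9 fits without a single library.

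The second receptor gene, VDR_099483, had 2.83 ± 1.49 CPM in mutant and 9.29 ± 4.84 CPM in control libraries (adjusted p = 0.0353), and kept its call only without control replicate 4 or 5 or mutant replicate 2. CYP24A1, which breaks vitamin D down, had 238 ± 29.3 CPM against 611 ± 333 CPM and was not called (adjusted p = 0.115). Control replicates 1 and 2 had 837 and 946 CPM and control replicates 4 and 5 had 408 and 252 CPM. dio3b, the deiodinase that inactivates thyroid hormone, fell (142 ± 41 CPM against 463 ± 265 CPM, adjusted p = 0.0353) and kept its call only without control replicate 4 or 5 or mutant replicate 5. Both VDR genes and CYP24A1 were named after their values were seen.

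slc27a2a and 3 of 29 genes of fatty acid oxidation fell. slc27a2a (ENSDARG00000036237), which activates and takes up long-chain fatty acids, had 148, 128, 119, 124 and 124 CPM in the mutant libraries, against 313, 318, 233 and 202 CPM in the control libraries. The mutant libraries lay close together, and control replicates 1 and 2 were above control replicates 4 and 5. The log2 fold change was -1.05 (SE 0.114, adjusted p = 2.36e-07).

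HSD17B4, an enzyme of peroxisomal fatty acid oxidation, had 136, 125, 120, 132 and 134 CPM in the mutant libraries, against 188, 252, 194 and 161 CPM in the control libraries (log2 fold change -0.62, SE 0.103, adjusted p = 0.0003). The mitochondrial trifunctional subunit hadhaa had 86.9 ± 2.96 CPM against 129 ± 29.7 CPM (adjusted p = 0.00617) and the long-chain dehydrogenase ACADVL 266 ± 18.9 CPM against 361 ± 64.5 CPM (adjusted p = 0.00711). hadhaa was lost without control replicate 1 or 2 and ACADVL without control replicate 2. Of 29 tested fatty acid oxidation genes these 3 fell and none rose, 28 were below 0 and the median was -0.33. The count was 1 without control replicate 2, 8 without control replicate 5, 5 without mutant replicate 1 and 0 with libraries scaled to hepatocyte genes. At an unadjusted p under 0.05, 18 of the 29 were lower and none was higher, and DESeq2 called 4 lower.

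Of 26 genes of fatty acid synthesis and lipid droplets, FASN, the fatty acid synthase, fell (91.9 ± 7.63 CPM against 134 ± 9.73 CPM, adjusted p = 0.0212). It was not called without control replicate 1 or 2 or mutant replicate 2, 3 or 5. The desaturase SCD (2.93 ± 2.14 CPM against 0.848 ± 0.394 CPM, adjusted p = 0.306) and the lipid droplet coat PLIN2 (5.33 ± 2.69 CPM against 3.57 ± 1.38 CPM, adjusted p = 0.79) were not called. Nor was the acetyl-CoA synthetase-like acss2l (9.83 ± 5.06 CPM against 26.6 ± 16.2 CPM, adjusted p = 0.422).

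Of 33 tested genes of glycolysis and gluconeogenesis 2 fell, 31 were not called, 15 were above 0 and 18 below. SLC2A2, the glucose transporter of liver, had 63.2, 59.9, 56.7, 58.7 and 77.3 CPM in the mutant libraries, against 132, 146, 89.2 and 81 CPM in the control libraries (log2 fold change -0.82, SE 0.141, adjusted p = 0.000924). PKLR, the liver pyruvate kinase, had 487, 557, 462, 565 and 498 CPM against 587, 754, 727 and 621 CPM (log2 fold change -0.39, SE 0.0819, adjusted p = 0.00595), and was lost without control replicate 2. Neither gene's groups overlapped. These were the 2 members that fell. Their number was 5 without control replicate 5, 3 without control replicate 4 or mutant replicate 1 and 1 without control replicate 2. The list median was -0.05 with TMM and 0.14 with libraries scaled to hepatocyte genes. Of the 33, 11 were lower and none higher at an unadjusted p under 0.05, and DESeq2 called 5 lower.

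adpgk2, an ADP-dependent glucokinase, fell (10.4 ± 2.03 CPM against 22.8 ± 4.27 CPM, log2 fold change -1.13, adjusted p = 0.00253). KHK, the fructose kinase, named after its values were seen, also fell (6.25 ± 1.84 CPM against 12.9 ± 2.13 CPM, adjusted p = 0.0318). The call of KHK was kept only without control replicate 2 or mutant replicate 3.

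Single genes of creatine, amino acid and heme metabolism fell. GATM (ENSDARG00000036239), the first enzyme of creatine synthesis, had 1817, 1281, 1214, 1143 and 1435 CPM in the mutant libraries, against 2353, 2928, 2237 and 2347 CPM in the control libraries. The groups were apart, and control replicate 2 stood above the other controls. The log2 fold change was -0.84 (SE 0.11, adjusted p = 0.000299).

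GAMT, the second enzyme of that pathway, had 568 ± 108 CPM in mutant and 1142 ± 347 CPM in control libraries (log2 fold change -1.01, adjusted p = 0.0179). It was lost without control replicate 1 or 2 or mutant replicate 2, 3 or 4. GSTZ1, of tyrosine breakdown, had 16.2 ± 2.85 CPM against 31.6 ± 8.78 CPM (adjusted p = 0.0133) and AGXT_052099, which removes glyoxylate, 137 ± 37.5 CPM against 321 ± 145 CPM (adjusted p = 0.041). GSTZ1 was lost without control replicate 1 or 2 or mutant replicate 3 or 4, and AGXT_052099 was kept only without control replicate 5 or mutant replicate 1.

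Of 48 tested genes of amino acid breakdown, GSTZ1 and AGXT_052099 fell and none rose (median -0.36). The count was 0 without control replicate 1 or 2 or mutant replicate 3 or 4, 1 without mutant replicate 2 or 5, and 12 without control replicate 5. At an unadjusted p under 0.05, 21 of the 48 were lower and 1 was higher, and DESeq2 called 10 lower. ALAS1, which starts heme synthesis, had 436, 453, 424, 349 and 425 CPM in the mutant libraries, against 686, 873, 795 and 608 CPM in the control libraries (log2 fold change -0.83, SE 0.165, adjusted p = 0.0228). FECH, which ends it, had 4.8 ± 0.918 CPM against 11.3 ± 4.61 CPM (adjusted p = 0.0179). ALAS1 was lost without control replicate 1, 2 or 4 or mutant replicate 3 or 4, and FECH without control replicate 1 or 2 or mutant replicate 2 or 3. GATM, GAMT and ALAS1 were named after their values were seen.

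Other genes that fell were the aldehyde reductase akr1a1a (12.9 ± 4.4 CPM against 31.5 ± 4.58 CPM, adjusted p = 0.0174), mto1, which modifies mitochondrial tRNA (11.4 ± 2.23 CPM against 26.1 ± 9.95 CPM, adjusted p = 0.0032), and SH3TC1 (8.24 ± 2.18 CPM against 19 ± 0.989 CPM, adjusted p = 0.00585). akr1a1a was lost without control replicate 1 or 2 or mutant replicate 4, and mto1 without control replicate 2. FGF19, a hormone that restrains bile acid synthesis, named after its values were seen, had 0.456, 0.279, 0, 0.332 and 2.11 CPM in the mutant libraries, against 7.09, 5.37, 9.67 and 1.89 CPM in the control libraries (log2 fold change -3.22, adjusted p = 0.0359), the largest decrease among the genes called lower. Mutant replicate 5 lay above control replicate 5, and the call was kept only without control replicate 5 or mutant replicate 5.

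Few genes of secreted proteins and hepatocyte enzymes were called, although most lay below 0. ahsg1 (ENSDARG00000026764), a fetuin, had 32.1, 22.3, 25.6, 30.8 and 38 CPM in the mutant libraries, against 60, 77.4, 63.8 and 41 CPM in the control libraries (log2 fold change -1.02, SE 0.158, adjusted p = 0.000119). Mutant replicate 5 and control replicate 5 were nearly level. Of 40 tested secreted protein genes, ahsg1 and the growth factor binding protein IGFBP2_031422 (30.2 ± 4.44 CPM against 73.4 ± 36.2 CPM, adjusted p = 0.0454) fell and none rose. IGFBP2_031422 was kept only without control replicate 4 or 5. The count was 4 without control replicate 5 and 1 without control replicate 1 or 2 or any single mutant library. The median was -0.17, and 0.11 with libraries scaled to hepatocyte genes. As this list is part of what sets that scaling, its median there is no separate result. At an unadjusted p under 0.05, 2 of the 40 were higher and 8 lower, and DESeq2 called 1 higher and 4 lower.

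Of 41 hepatocyte enzymes, PKLR and AGXT_052099 fell and none rose, 36 were below 0 and the median was -0.48. The hepatocyte enzyme count was 0 without control replicate 2, 1 without control replicate 1 or mutant replicate 2, 3, 4 or 5, 3 without mutant replicate 1 and 9 without control replicate 5. It was 0 without control replicates 1 and 2 together and 15 without control replicates 4 and 5 together. At an unadjusted p under 0.05, 20 of the 41 were lower and none was higher, and DESeq2 called 10 lower. Of 33 liver transcription factors edgeR and DESeq2 called none, and 1 was higher and 2 lower at an unadjusted p under 0.05 (median -0.08, and 0.12 with libraries scaled to hepatocyte genes).

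Of 26 genes of sterol synthesis and uptake edgeR called none, although 12 were lower at an unadjusted p under 0.05, 25 were below 0 and the median was -0.72. insig1, which restrains sterol synthesis, had 12.5, 9.76, 13.1, 16.2 and 14.8 CPM in the mutant libraries, against 26.6, 24, 20.5 and 18.6 CPM in the control libraries, without overlap (log2 fold change -0.76, adjusted p = 0.0599). The squalene epoxidase SQLE_079946 had 23.8 ± 5.21 CPM against 57.6 ± 31.3 CPM (adjusted p = 0.21) and the LDL receptor ldlra 65.3 ± 8.87 CPM against 126 ± 50.6 CPM (adjusted p = 0.0705). For SQLE_079946 control replicates 1 and 2 had 79.7 and 88.7 CPM and control replicates 4 and 5 had 25.4 and 36.7 CPM. Without control replicate 5, insig1 and ldlra were called, and DESeq2 called 5 of the 26 lower.

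Cell cycle genes were not called. Of 46 DNA replication genes, 31 genes of the G1/S transition and 43 genes of mitosis none rose or fell by edgeR or DESeq2 (medians 0.14, 0.02 and 0.25). At an unadjusted p under 0.05, 7 replication genes, 1 G1/S gene and 3 mitosis genes were higher and 1 G1/S gene was lower. Above 0 were 33 replication, 16 G1/S and 35 mitosis genes, and below 0 were 13, 15 and 8. Over all tested genes 54.5% were above 0. Lowest in adjusted p were POLE for replication (log2 fold change 0.70, adjusted p = 0.145) and cenpe for mitosis (0.56, adjusted p = 0.182). On simulated data the palbociclib comparison recovered 44.8% of genes changed by a log2 of 1 and 6.56% of those changed by 0.5. No difference in muscle or hepatocyte share was built into the simulated libraries, so these rates are a rough guide only. PCNA, the replication clamp, had 103, 115, 111, 141 and 104 CPM in the mutant libraries, against 92.4, 91.9, 99.7 and 105 CPM in the control libraries (log2 fold change 0.24, SE 0.106, adjusted p = 0.441). CDK4, a target of palbociclib, had 39.4 ± 4.35 CPM against 37.9 ± 3.82 CPM (adjusted p = 0.978), and the other target, CDK6, 12 ± 3.12 CPM against 6.75 ± 2.22 CPM (adjusted p = 0.191).

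The cyclins CCND1 (67.6 ± 6 CPM against 64.7 ± 4.69 CPM, adjusted p = 0.953) and CCNE2 (3.26 ± 1.05 CPM against 3.83 ± 0.943 CPM, adjusted p = 0.957) lay close together in both groups. The mitotic kinase CDK1 had 9.2 ± 2.88 CPM against 8.05 ± 2.65 CPM (adjusted p = 0.947). Of 27 genes of DNA methylation and its readers edgeR and DESeq2 called none, and 0 had an unadjusted p under 0.05 (median -0.01, and 0.17 with libraries scaled to hepatocyte genes). Both tools also called none of 30 genes of the DNA damage response (median 0.17, 0 at an unadjusted p under 0.05), 30 of the unfolded protein response (median 0.10, 3 higher) and 12 histone genes (median -0.00, 1 higher). Of 29 oxidative stress genes NQO1 alone fell.

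Set beside the DMSO libraries, most of these genes differed in the same direction. No library enters both fold changes. The filter on low counts and the estimate of spread are shared, so the 2 lists of calls are not independent. In DMSO 1145 genes rose (6.72%) and 1772 fell (10.4%) in mutant livers. Of the 108 genes that rose with palbociclib, 100 also rose in DMSO, which is 92.6% of them and 8.73% of the DMSO list. Of the 71 that fell with palbociclib, 65 also fell in DMSO, which is 91.5% of them and 3.67% of the DMSO list. The median log2 fold change of the 108 genes was 3.11 with palbociclib and 3.30 in DMSO, and that of the 71 genes -0.96 with palbociclib and -1.58 in DMSO.

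Taken from the DMSO side, the 1145 genes that rose there had a median of 0.21 with palbociclib and 0.83 in DMSO, and 83.6% of them were above 0 with palbociclib, against 54.5% of all tested genes. The 1772 that fell in DMSO had a median of -0.27 with palbociclib and -1.05 in DMSO, and 85.6% were below 0 with palbociclib, against 45.5% of all tested genes. Because each list was chosen by its own comparison, the medians in the comparison that chose it are raised by that choice.

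**Figure D5:**
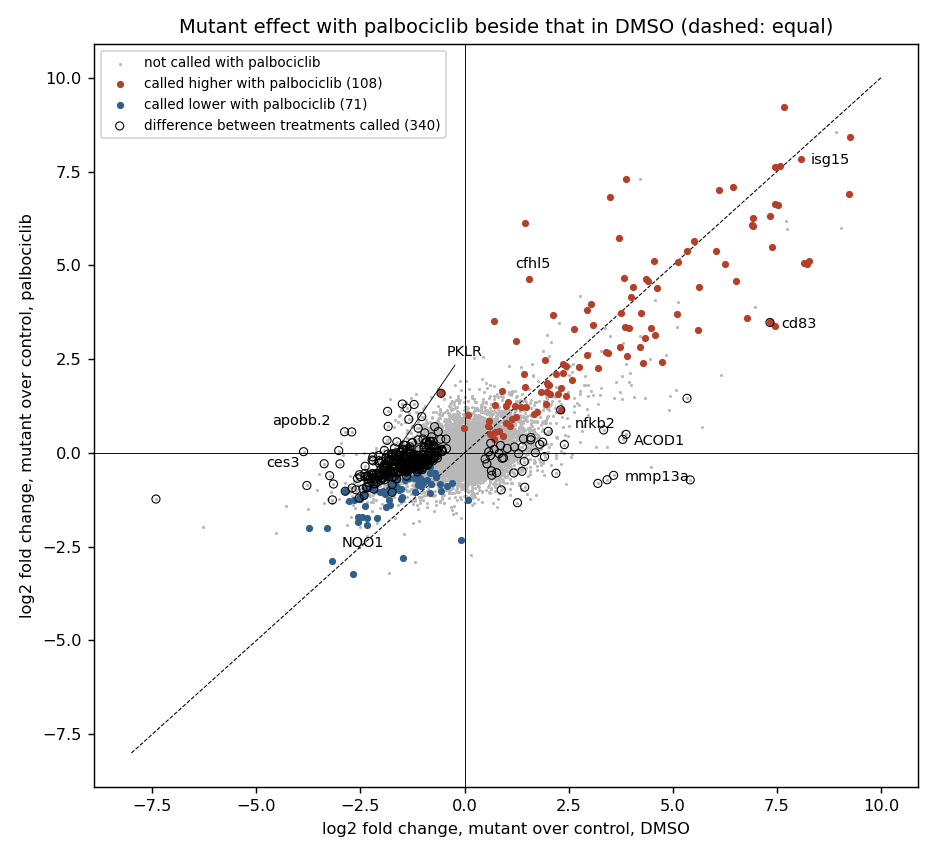
Log2 fold change of mutant over control with palbociclib (vertical) against that in DMSO (horizontal) for every tested gene; red and blue points are genes that rose and fell with palbociclib, rings mark the 340 genes whose 2 mutant effects differed, and the dashed line marks equal effects. isg15 lies near the dashed line (7.84 with palbociclib and 8.09 in DMSO), while mmp13a (-0.60 and 3.58), ACOD1 (0.36 and 3.80) and ces3 (-0.29 and -3.37) lie near 0 with palbociclib.

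The difference between the 2 mutant effects, tested as an interaction over all 18 libraries, was above 0 for 297 genes (1.74%) and below 0 for 43 (0.252%) at an adjusted p under 0.05, together 1.99% of those tested. Leaving out 1 palbociclib library at a time, these counts were 157 to 486 and 29 to 52. The first was 486, 157, 186 and 196 without control replicate 2, 4 or 5 or mutant replicate 5. Leaving out 1 DMSO library, they were 145 to 718 and 22 to 124. Without DMSO control replicate 2, 3 or 4 they were 718 and 124, 150 and 22, and 145 and 23. Without DMSO mutant replicate 3 or 4 the first was 171 and 192, and without mutant replicate 2, 4 or 5 the second was 28, 26 and 26. With the muscle share as a covariate they were 118 and 78, and with libraries scaled to hepatocyte genes 15 and 10149, since in that scaling the median interaction of all genes was -1.25.

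No interferon or class I gene was called for the interaction. Of 29 interferon genes and 12 of class I, edgeR and DESeq2 called none, while 5 interferon genes and 1 class I gene were below 0 and 1 class I gene above 0 at an unadjusted p under 0.05. In DMSO 22 of these interferon genes rose, against 8 with palbociclib, with medians of 2.75 and 1.87. For class I these numbers were 9 and 3, with medians of 1.47 and 1.28. isg15 had log2 fold changes of 7.84 with palbociclib and 8.09 in DMSO (interaction -0.24, SE 1.6, adjusted p = 0.972). b2m had 5.64 and 5.51 (interaction 0.13, SE 1.02, adjusted p = 0.976). fas (4.66 and 3.83, interaction SE 0.933, adjusted p = 0.78) and rps27l (2.32 and 2.45, interaction SE 0.478, adjusted p = 0.944) were also not called. The SEs of isg15 were 0.687 with palbociclib and 0.637 in DMSO. SEs of interactions, taken from the F statistic, do not follow from these and are a rough guide only. A missing call does not show that the 2 mutant effects were equal.

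Of 25 NF-kB and inflammation genes, 5 had a negative interaction that was called and none a positive one. Over all tested genes 0.252% had a negative one that was called. Among the 5 were the proteases MMP9 and mmp13a and the enzyme ACOD1. As the list was chosen with earlier results of these data known, the count is no separate result about NF-kB. nfkb2 had a log2 fold change of 1.15 with palbociclib and 2.31 in DMSO (interaction -1.16, adjusted p = 0.0115). ACOD1, which makes itaconate in activated macrophages, had 1.14, 3.35, 2.85, 3.32 and 1.81 CPM in mutant and 0.645, 3.16, 2.62 and 1.35 CPM in control libraries with palbociclib. In DMSO it had 11.8, 11.6, 8.66, 10.2 and 11.2 CPM in mutant and 1.17, 0.486, 0.498 and 0.779 CPM in control libraries. The groups overlapped with palbociclib and were apart in DMSO (interaction -3.44, adjusted p = 0.00333).

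mmp13a, a collagenase of inflamed tissue and neutrophils, had 1.37, 2.79, 3.99, 0.663 and 0.604 CPM in mutant and 1.93, 6.32, 2.82 and 0.81 CPM in control libraries with palbociclib. In DMSO it had 8.17, 17.7, 6.5, 4.46 and 13.1 CPM in mutant and 1.17, 0, 0.995 and 1.04 CPM in control libraries (interaction -4.18, adjusted p = 0.00493). MMP9, a gelatinase, and nfkbiaa had interactions of -2.02 (adjusted p = 0.0113) and -1.44 (adjusted p = 0.0367), and cd83 one of -3.86 (adjusted p = 0.0244). MMP9 lost the call without control replicate 4 of the palbociclib libraries. cd83 lost it without control replicate 1 of these or DMSO control replicate 1 or 4, and nfkbiaa in 10 of 18 such fits. nfkb2, ACOD1 and mmp13a kept it in all 18. With the muscle share as a covariate MMP9 was not called (adjusted p = 0.0628), while nfkb2, ACOD1, mmp13a, cd83 and nfkbiaa were. MMP9 and mmp13a are also markers of neutrophils, a list that took 0.00578% of counts in mutant and 0.00479% in control libraries with palbociclib (exact permutation p = 0.119), and 0.00854% and 0.00371% in DMSO. Both genes are themselves in that list, so its shares are not separate from their levels. The shares were not taken without both genes, and the part of neutrophil number was not tested.

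Of the hepatocyte genes a minority was called for the interaction, with values above 0 under TMM scaling. PKLR had log2 fold changes of -0.39 with palbociclib and -1.91 in DMSO (interaction 1.52, adjusted p = 3.57e-12). Its level was 514 ± 45.1 CPM in mutant and 672 ± 80.8 CPM in control libraries with palbociclib, and 386 ± 17.7 CPM and 1453 ± 141 CPM in DMSO. fetub, a fetuin, had 2984 ± 572 CPM in mutant and 4773 ± 1086 CPM in control libraries with palbociclib (adjusted p = 0.0877), and 1991 ± 140 CPM and 8660 ± 1608 CPM in DMSO (interaction 1.44, adjusted p = 0.00672). ces3, a carboxylesterase, had 45 ± 7.65 CPM in mutant and 55.1 ± 21.8 CPM in control libraries with palbociclib, and 21.7 ± 3.04 CPM and 225 ± 40.4 CPM in DMSO (interaction 3.08, adjusted p = 7.94e-05). The apolipoprotein gene apobb.2 had 65.5 ± 26.4 CPM and 43.9 ± 21.5 CPM with palbociclib, and 34 ± 6.5 CPM and 252 ± 67.9 CPM in DMSO (interaction 3.44, adjusted p = 0.00333).

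By list, the interaction was positive and called for 13 of 29 fatty acid oxidation genes, 9 of 48 genes of amino acid breakdown, 9 of 47 complement and coagulation genes, 8 of 40 secreted protein genes and 4 of 41 hepatocyte enzymes, and negative and called for none of them. DESeq2 called 17, 18, 18, 26 and 15 of these genes above 0 and none below. These counts depend on scaling, and the secreted protein and hepatocyte enzyme lists, with PKLR and HGD among them, themselves set the hepatocyte scaling. With libraries scaled to hepatocyte genes the interactions of slc27a2a, HSD17B4, ACADVL, GATM, HGD and SH3TC1 turned negative, and none of these was called. Those of PKLR and SLC2A2 were 0.27 and 0.17 and were not called, nor were those of adpgk2, ahsg1, fabp10a and fetub, also above 0. ces3 (1.93, adjusted p = 0.000157), apobb.2 (2.19, adjusted p = 0.00082), cbln9, UNC93B1, IGFALS and COMTD1 stayed above 0 and called. In the fit with the muscle share as a covariate, cbln9 (adjusted p = 0.054) and UNC93B1 (adjusted p = 0.305) were not called. ces3, apobb.2, IGFALS and COMTD1 were called there. UNC93B1 was also lost in 8 of 18 fits without a single library. Muscle genes took 5.46% of counts in mutant and 4.99% in control libraries with palbociclib, and 5.18% and 3.42% in DMSO, so the muscle share moved with the hepatocyte interactions, and its part in them was not tested beyond the covariate.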

How the data were processed

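Liver RNA was freed of ribosomal RNA and read as paired ends, per the labels' protocols, and the authors deposited whole-number read counts per gene for each library. The submitters' processing notes name FastQC 0.11.5 and Trimmomatic 0.36. Which aligner, counter, strand setting, genome build and annotation were used is not given in the sources used here. Of 32105 gene IDs, 26269 matched a symbol, and these took 87.8% of the counts. edgeR 4.0.16 (R 4.3.3) kept 17048 genes with filterByExpr, which left out 15057 genes but kept 99.56% of the counts. TMM factors were 0.762 to 1.16. A quasi-likelihood model with a mean for each of the 4 groups was fitted to all 18 libraries (common biological coefficient of variation 0.218). The spread between samples and the depth both limit genes under a few CPM, and intervals of count ratios cover counting error only. Shares of counts were compared by exact permutation tests (scipy 1.17.1).

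The 24 gene lists and 13 cell type lists (1180 symbols, 1083 matched) and the genes named were chosen with earlier results of these data known. The naming rule took the 12 largest changes in each direction among called genes that had a single usable name, a mean of 5 CPM or more in either group and libraries that did not overlap. It also took, per list, the 4 members lowest in adjusted p, the 6 largest interactions in each direction under the same conditions of name and level, and a fixed set. Genes outside it are marked as named after their values were seen. A member of the interferon list is counted but not reported here by name. On simulated data of 16666 genes for the palbociclib comparison, 6.56%, 44.8% and 80.3% of genes changed by a log2 of 0.5, 1 and 2 were recovered, with 7 unchanged genes called. For the interaction 0%, 25.4% and 69.7% were recovered. The simulation was a single draw around gene means pooled over all libraries, with no difference in tissue shares built in, so recovery in the real data may differ. Alternatives were DESeq2 1.42.0, other scalings, no filter, the palbociclib libraries alone, the muscle share as a covariate, the replicate number as a block, and libraries left out. Promoter searches were not run, as no sequence table was used here.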

Additional observations from a re-analysis of the deposited data

Results flagged for a closer look

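Of 252 groups of values checked for a library standing apart from the rest of its group, 12 had one, against about 1 in 20 that chance gives. Among the control libraries with palbociclib these were replicate 2 for igldcp (0.632 CPM, the other controls at 0), GATM (2928 CPM) and the endothelial share (0.0273% of counts), replicate 1 for b2m (2.15 CPM), replicate 4 for MMP9 (6.24 CPM), and replicate 5 for hp, the haptoglobin gene (7.02 CPM), and for the leukocyte and macrophage share (0.021%). Among the mutant libraries with palbociclib these were replicate 2 for ERAP1_013024 (20.9 CPM), replicate 4 for VDR_070721 (15.3 CPM) and ALAS1 (349 CPM), replicate 5 for FGF19 (2.11 CPM) and replicate 3 for the neutrophil share (0.00727%).

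Of the 111 genes named, 28 had a mutant effect with palbociclib that differed from that in DMSO by the interaction test, and 14 of these were called in each of the 18 fits without a single library. None changed sign in those fits, and 17 were called in the fit with muscle share included. Over all tested genes 1.99% were called for the interaction. The naming rule itself took the largest interactions in each direction, such as those of apobb.2, ces3, mmp13a and ACOD1. The count of 28 follows in part from that rule and is no separate result. The negative interactions, on the log2 scale, were those of mmp13a (-4.18), cd83 (-3.86), ACOD1 (-3.44), hp (-3.38), hs3st1l2 (-2.73), lingo4b (-2.60), cyp1c2 (-2.36), MMP9 (-2.02), nfkbiaa (-1.44) and nfkb2 (-1.16). hp was lost in 13 of the 18 fits, as were lingo4b and cyp1c2. The positive ones were those of apobb.2 (3.44), cbln9 (3.09), ces3 (3.08), UNC93B1 (2.96), IGFALS (2.70), COMTD1 (2.63), ahsg1 (1.84), PKLR (1.52), fabp10a (1.44), fetub (1.44), SLC2A2 (1.36), SH3TC1 (1.32), adpgk2 (1.28), HGD (1.19), GATM (0.90), HSD17B4 (0.77), slc27a2a (0.69) and ACADVL (0.57). fabp10a and IGFALS were called in 4 of the 18 fits.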

How the results depend on the processing

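No gene named changed its direction with palbociclib in a call under any alternative run. Of 32 named genes that rose, 25 were called in each of the 9 fits without a single library and 11 in the 11 other fits as well. Of 30 that fell these numbers were 12 and 1. Without control replicates 1 and 2 together, 16 of the 32 and 25 of the 30 were lost. With libraries scaled to hepatocyte genes 1 and 19 were lost. The 19 include ahsg1 and PKLR, which are among the genes that set that scaling. uhrf1 was not called under any. Genes that rose and fell numbered 192 and 108 without TMM factors, 169 and 25 with hepatocyte scaling, 284 and 175 with the muscle covariate, 164 and 163 with DESeq2, and 140 and 110 without the filter on low counts. Without control replicates 1 and 2 they were 37 and 6, and without 4 and 5, 70 and 376. Leaving out 1 library gave 71 to 163 and 24 to 202. Interactions above and below 0 numbered 248 and 143 without TMM factors, 15 and 10149 with hepatocyte scaling, 118 and 78 with the muscle covariate and 519 and 80 with DESeq2. They numbered 594 and 62 without control replicates 1 and 2 and 63 and 25 without 4 and 5. Leaving out 1 library gave 145 to 718 and 22 to 124. The cause of these shifts was not tested.

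Same-numbered mutant and control libraries did not deviate together (correlations -0.0556, 0.0841, 0.0621 and -0.143 for replicates 1, 2, 4 and 5), so the numbers were not taken as pairs. With a replicate block, 70 genes rose and 25 fell in the fit of 18 libraries and 84 and 77 in that of the palbociclib libraries, and the interaction counts were 120 and 17. The pairs of low and high muscle share and the omission of DMSO libraries were chosen after seeing the data.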
